A study of Mus musculus with 6 samples.

Results

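The genes described are those of mitochondrial complex I in the nomenclature Nduf: its nuclear-encoded structural subunits and the assembly factors named Ndufaf. They were found by gene symbol (Ndufa, Ndufab, Ndufb, Ndufc, Ndufs, Ndufv or Ndufaf followed by a digit, without Ndufa4l2), which gave 44 genes of 24704 measured, 36 under structural symbols and 8 assembly factors. By symbol, the 36 include Ndufa4, which is now assigned to cytochrome c oxidase, and the pseudogene Ndufs5-ps. Ndufs5, Ndufb4 and the subunits encoded by mitochondrial DNA were not analysed here. RNA came from whole lung, perfused to remove blood, of mice kept in hypoxia for 7 days, and was hybridised as biotinylated cRNA to Affymetrix arrays, which report probe brightness. The 3 control arrays were from mice carrying floxed Nfat5 alleles (Nfat5fl/fl) that were injected with the solvent miglyol. The other 3 arrays were from mice in which Nfat5 was ablated in endothelial cells, Nfat5(EC)-/-, with 1 mg of tamoxifen a day, given intraperitoneally on 5 days. Adult males and females aged 10 to 12 weeks at injection recovered for 2 to 3 weeks. Genotype and tamoxifen differed together and cannot be told apart. All 6 arrays were hypoxic, and no normoxic array was used here. The sources used here give neither the Cre line nor the deleted part of Nfat5 nor the sex of each animal. The series design speaks of 4 mice a group and of lung preparations left out for contaminating tissue or a poor expression response to hypoxia, which means that expression took part in choosing the arrays. The comparison addresses how the lung under hypoxia differs when endothelial cells lack NFAT5, a transcription factor known for the response to osmotic stress.

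Complex I is the entry point of the respiratory chain: it takes electrons from NADH, passes them along a chain of iron-sulfur clusters in its matrix arm to ubiquinone, and pumps protons through its membrane arm. Core subunits carry out this chemistry, accessory subunits surround and stabilise them, and assembly factors help to build the complex but are not part of the finished enzyme. In the lung, as elsewhere, mitochondrial respiration is the main consumer of the oxygen that hypoxia makes scarce, and most subunit genes lie in the nucleus, scattered over many chromosomes.

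Nfat5 itself lay at 6.65, 6.58 and 6.30 on the control arrays and 4.46, 4.48 and 3.89 on the knockout arrays, each time in the order of replicates 1, 3 and 4. The knockout arrays were lower by 2.23 ± 0.23 on the log2 scale, a fold of 4.69, with no overlap between groups (adjusted p = 0.00151); since neither the deleted part nor the probes' positions are known, this checks the label only in so far as the transcript was lost. All values below are log2 levels after RMA, a summary over the probes of a gene, and differences are knockout minus control with limma's standard error and the Benjamini-Hochberg adjusted p over all 24704 genes. The threshold was an adjusted p of 0.05. Knockout arrays correlated less with each other (lowest r across genes 0.916 to 0.934) than control arrays did (0.968 to 0.969). The median level of 106 small nucleolar RNAs was 4.01 to 4.20 on the control arrays and 7.43, 6.49 and 6.43 on knockout replicates 1, 3 and 4. With that level as a covariate in limma, 0 of 24704 genes passed, and 3576 had an unadjusted p under 0.05, 15 of the 44 among them. Of 10 markers of lung epithelium and vessels, none rose and 4 fell (Cdh5, Pecam1, Sftpa1 and Cldn18), where 12.5% of all genes rose and 13% fell. Cdh5 and Pecam1 are also among 16 endothelial markers, of which 5 fell and 5 rose (Vwf, Egfl7, Cldn5, Eng and Sox18). The summed level of the 10 lung markers (log2 of the sum of the unlogged values) was 14.1 to 14.2 on control arrays and 13.3 to 13.9 on knockout arrays.

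Of the 36 structural genes, 8 rose in the knockout and 1 fell, and 27 did not pass. Ndufb2, Ndufs7, Ndufa13, Ndufa7, Ndufv1, Ndufb10, Ndufb6 and Ndufb8 were higher by 0.81 to 1.23, which is 1.76-fold to 2.34-fold, and Ndufs1 was lower by a fold of 2.68. Over all genes 25.5% passed in either direction, 12.5% higher and 13% lower, so that the 25% of structural genes that passed is close to the background. The split by direction was 22.2% higher and 2.78% lower. The median difference of the 36 was 0.12, against 0.04 over all genes, with 22 positive and 14 negative. Without knockout replicate 1 that median was 0.34, and without knockout replicate 4 it was -0.05. In whole tissue, fewer cells of a type and less RNA per cell cannot be told apart.

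**Figure D1:**
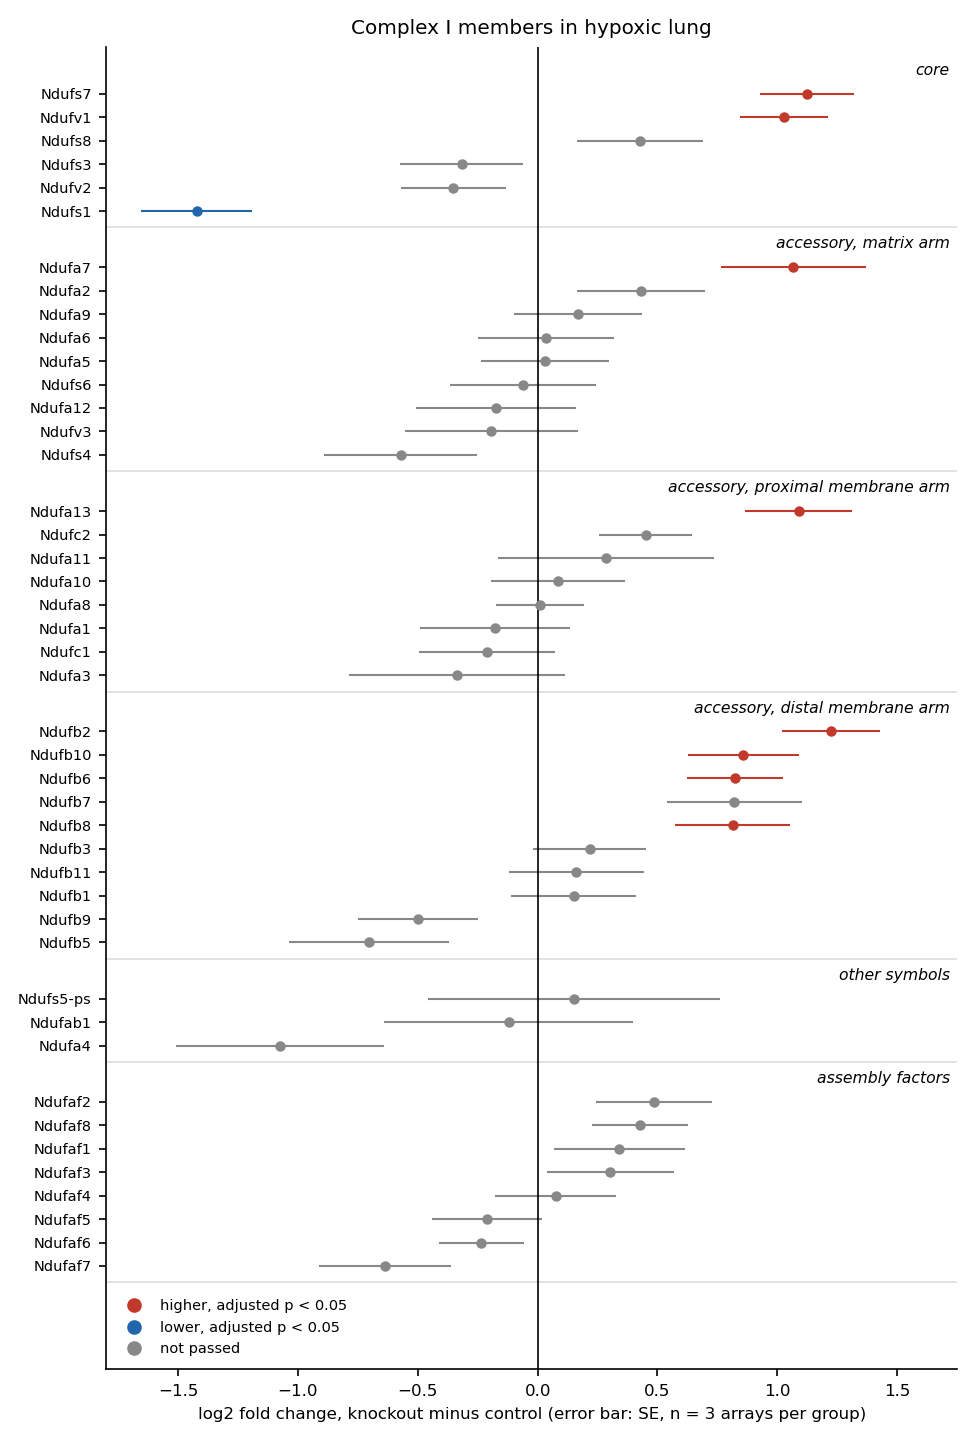
Log2 difference (knockout minus control, horizontal axis) of the 44 genes, ordered by role, with bars of 1 standard error from limma. The 8 genes that rose are red and Ndufs1, which fell, is blue, and the 8 assembly factors, in the lowest block, all stay between -0.64 and 0.48.

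Where 25.5% of all genes passed, none of the 8 assembly factors did. Their differences ran from -0.64 in Ndufaf7 to 0.48 in Ndufaf2, with a median of 0.19, and 1 had an unadjusted p under 0.05 in limma. The lowest adjusted p among them was 0.127. Whether the factors differ from the structural genes was not tested. The median of the factors was -0.05 without knockout replicate 1.

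The start sites of these genes were examined because many share sequence features that the choice of genes did not use. RefSeq windows of 300 bases (250 before the start and 50 after it, GRCm38.p6) matched 39 of the 44 genes, with 41 windows, and were set beside 22377 windows of 18379 measured genes. Motifs were searched by their letters on both strands, and none of these letter strings contains another. The YY1 site AAGATGGC was found in 8 of the 41 windows, 19.5%, against 3.04% of all windows. In all 8 it lay on the gene's own strand, 11 to 39 bases after the start, where 1.17% of all windows hold it. These letters include ATG, and whether that is the start codon was not examined. The sites are printed here, 30 bases each, because among the motifs searched they are the most frequent in these windows relative to all windows. Of the 8 genes, Ndufs7 and Ndufb8 rose and the other 6 did not pass, where 18.2% of the 44 genes and 12.5% of all genes rose. Whether the site goes with the rise was not tested. Capitals mark the YY1 letters.
Ndufc1 (chr3:51408915-51408944, minus strand): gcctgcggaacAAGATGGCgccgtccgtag
Ndufa9 (chr6:126849097-126849126, minus strand): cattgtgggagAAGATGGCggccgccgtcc
Ndufa3 (chr7:3617384-3617413, plus strand): ccgccaagaacAAGATGGCcgggagtaagt
Ndufs7 (chr10:80249462-80249491, plus strand): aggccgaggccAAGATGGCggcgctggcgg
Ndufaf8 (chr11:120098933-120098962, plus strand): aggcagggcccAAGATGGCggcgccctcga
Ndufs6 (chr13:73328433-73328462, minus strand): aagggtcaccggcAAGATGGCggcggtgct
Ndufs4 (chr13:114388045-114388074, minus strand): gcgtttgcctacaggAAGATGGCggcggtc
Ndufb8 (chr19:44555393-44555422, minus strand): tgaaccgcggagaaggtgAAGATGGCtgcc

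The core of the site of nuclear respiratory factor NRF1, GCATGCGC, was found in 5 of the 41 windows, 12.2%, against 3.48% of all windows. NRF1 is a known activator of respiratory chain genes. None of the 9 windows of the 8 genes that rose held it, and 9 windows are too few to set against shares of 12.2% and 3.48%. The 5 sites are shown as members that carry the motif and did not pass, with the NRF1 letters in capitals; where matches on both strands overlap, the capitals cover both, and Ndufaf4 has a further match not shown.
Ndufa8 (chr2:36049328-36049357, minus strand): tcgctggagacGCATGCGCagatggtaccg
Ndufaf5 (chr2:140170652-140170681, plus strand): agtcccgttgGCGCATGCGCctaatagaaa
Ndufaf4 (chr4:24897960-24897989, plus strand): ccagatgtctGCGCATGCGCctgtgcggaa
Ndufa6 (chr15:82354356-82354385, minus strand): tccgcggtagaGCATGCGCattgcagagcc
Ndufa11 (chr17:56717692-56717721, plus strand): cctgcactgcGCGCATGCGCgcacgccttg

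Other motifs were close to their share in all windows. The ETS letters CCGGAAG, the kind of site bound by GABP, were in 14.6% of the members' windows and 11.2% of all, and the GC box GGGCGG in 51.2% and 45.4%. TATAAA stood in 12.2% of both, and in 3 of the 9 windows of genes that rose. These were the window of Ndufs7 and both windows of Ndufa7, which overlap and hold the same match. The ERR site TCAAGGTCA was in 0 of the 41 windows and in 0.308% of all. The NFAT core TGGAAA was in 14.6% of the members' windows and 19.8% of all, and in 2 of the 9 windows of genes that rose, those of Ndufb6 and Ndufb10. Their 250 bases before the start follow because NFAT5 is the deleted factor, with capitals on the NFAT core and, in Ndufb6, also on the ETS letters, each here on the opposite strand. A match is a string of letters, not a bound site.
Ndufb6 (chr4:40279422-40279671, minus strand): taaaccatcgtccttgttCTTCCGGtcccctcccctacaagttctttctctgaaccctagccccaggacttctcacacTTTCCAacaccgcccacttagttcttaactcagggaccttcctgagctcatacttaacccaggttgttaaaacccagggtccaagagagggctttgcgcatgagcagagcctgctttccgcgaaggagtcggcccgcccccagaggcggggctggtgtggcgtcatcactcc
Ndufb10 (chr17:24724424-24724673, minus strand): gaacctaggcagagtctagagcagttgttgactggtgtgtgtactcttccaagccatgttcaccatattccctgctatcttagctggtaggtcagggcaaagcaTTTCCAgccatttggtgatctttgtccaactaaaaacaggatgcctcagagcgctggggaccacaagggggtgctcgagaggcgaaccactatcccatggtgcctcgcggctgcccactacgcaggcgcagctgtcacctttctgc

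The core subunits measured were 6, of which 2 rose and 1 fell, with a median difference of 0.06. These counts are 33.3% and 16.7%, where 12.5% of all genes rose and 13% fell. Whether the core subunits differ from all genes was not tested. Ndufs1, the largest iron-sulfur subunit of the NADH-oxidising module, lay at 4.78, 4.64 and 4.67 on the control arrays and 3.22, 3.69 and 2.91 on the knockout arrays. Every knockout array was below every control array, and the difference was -1.42 ± 0.23 (adjusted p = 0.00395). Ndufv1, which holds the flavin that takes electrons from NADH in the same module, lay at 5.39, 5.21 and 5.29 on the control arrays and 6.22, 6.46 and 6.29 on the knockout arrays. Here each knockout array was above each control array, with a difference of 1.03 ± 0.18 (adjusted p = 0.00527). These 2 neighbours in the module therefore moved in opposite directions. Their partner Ndufv2, another iron-sulfur subunit, lay at 5.32, 5.15 and 5.17 on the control arrays and 4.85, 4.53 and 5.21 on the knockout arrays. Its groups overlapped, knockout replicate 4 lying among the controls, and the difference was -0.35 ± 0.22 (adjusted p = 0.286).

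In the quinone-reducing module, Ndufs7, which carries the last iron-sulfur cluster before ubiquinone, lay at 6.08, 6.21 and 6.52 on the control arrays and 7.36, 7.35 and 7.47 on the knockout arrays. The groups did not overlap, the 3 knockout arrays had an SD of 0.07, and the difference was 1.12 ± 0.20 (adjusted p = 0.00491). Its YY1 letters are in the sites printed above. Ndufs8, an iron-sulfur subunit next to it, lay at 5.37, 5.79 and 6.0 on the control arrays and 5.77, 6.10 and 6.57 on the knockout arrays. The groups overlapped, and the difference was 0.43 ± 0.26 (adjusted p = 0.278). Ndufs3, a core subunit without a cluster, differed by -0.32 ± 0.26 (adjusted p = 0.421).

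Accessory subunits of the matrix arm numbered 9, with 1 that rose, 11.1% against 12.5% of all genes, and none that fell, against 13%. Their median difference was 0.03. Ndufa7 lay at 2.70, 3.58 and 3.45 on the control arrays and 4.70, 3.83 and 4.42 on the knockout arrays. Its groups were apart by a small margin, from 3.58 on control replicate 3 to 3.83 on knockout replicate 3, and the difference was 1.07 ± 0.30 (adjusted p = 0.0318). Leaving out any array other than knockout replicate 3 lost this call, with adjusted p from 0.0567 to 0.118. Ndufa12, a relative of the assembly factor Ndufaf2, lay at 6.56, 6.28 and 6.17 on the control arrays and 5.34, 6.60 and 6.55 on the knockout arrays. Knockout replicate 1 was lowest of all 6 arrays and the other 2 knockout arrays were within or above the control range, which gave -0.17 ± 0.33 (adjusted p = 0.755). Ndufs6, a zinc-binding accessory subunit, lay at 5.94, 6.08 and 6.27 on the control arrays and 5.31, 6.30 and 6.49 on the knockout arrays. Again knockout replicate 1 was the lowest array, here with the other 2 knockout arrays above all controls, and the difference was -0.06 ± 0.30 (adjusted p = 0.911). Ndufs4, an accessory subunit whose loss in mice is a model of Leigh syndrome, was below all controls on each knockout array, with -0.57 ± 0.32 (adjusted p = 0.233), and its knockout replicate 1 was at 3.30. Both Ndufs6 and Ndufs4 have YY1 letters, as Ndufs7 does. The other 5 ranged from -0.19 in Ndufv3 to 0.43 in Ndufa2, whose knockout arrays all lay above the controls.

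The distal membrane arm, built mostly from Ndufb subunits, held 4 of the 8 genes that rose: 4 of its 10 members, 40%, against 12.5% of all genes, and none fell. Without control replicate 1 or without control replicate 3, 1 of the 10 rose, Ndufb2. With the length trend described below removed, Ndufb2 rose and Ndufb9 fell (-0.77, adjusted p = 0.04). Without knockout replicate 4, Ndufb2 and Ndufb6 rose and Ndufb9 fell (-0.73, adjusted p = 0.0491). The median difference of the arm was 0.52. That the distal arm differs from the other subunits was not tested. Ndufb2, a small membrane subunit, lay at 3.86, 3.72 and 4.12 on the control arrays and 5.20, 4.90 and 5.28 on the knockout arrays. The groups did not overlap and the difference was 1.23 ± 0.20 (adjusted p = 0.00431). Ndufb6, which spans the inner membrane, lay at 4.39, 4.33 and 4.47 on the control arrays and 5.52, 5.10 and 5.06 on the knockout arrays. The groups did not overlap either, with a difference of 0.83 ± 0.20 (adjusted p = 0.0173). Ndufb10, which faces the intermembrane space, lay at 4.89, 4.61 and 5.13 on the control arrays and 5.40, 5.82 and 5.99 on the knockout arrays. The highest control array, 5.13, was below the lowest knockout array, 5.40, and the difference was 0.86 ± 0.23 (adjusted p = 0.0258). Ndufb8, a membrane subunit, lay at 3.51, 3.46 and 3.91 on the control arrays and 4.34, 4.14 and 4.84 on the knockout arrays. Its lowest knockout array, replicate 3, was above its highest control array, replicate 4, and the difference was 0.81 ± 0.24 (adjusted p = 0.0367).

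In the same arm, Ndufb7, an intermembrane-space subunit, lay at 4.66, 4.30 and 5.13 on the control arrays and 5.27, 5.30 and 5.98 on the knockout arrays. The groups did not overlap, and the difference of 0.82 ± 0.28 (adjusted p = 0.0615) missed the threshold. Ndufb9, a protein with the LYR motif, lay at 7.86, 7.85 and 8.18 on the control arrays and 7.06, 7.41 and 7.92 on the knockout arrays. Knockout replicate 4 was within the control range and the other 2 knockout arrays were below it, with a difference of -0.50 ± 0.25 (adjusted p = 0.182). Ndufb5 was below the controls on each knockout array, most on replicate 1 at 3.59, and differed by -0.70 ± 0.33 (adjusted p = 0.158). Ndufb3 had a mean of 1.42 in controls and 1.64 in knockouts, under the lower quartile of all levels (2.02). Ndufb1 and Ndufb11 differed by 0.15 and 0.16.

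The proximal membrane arm had 8 measured accessory subunits, with 1 that rose, 12.5% as over all genes, and none that fell, against 13%. Their median difference was 0.05. Ndufa13, known also as a protein in cell death signalling, lay at 2.96, 3.17 and 3.32 on the control arrays and 4.54, 3.90 and 4.28 on the knockout arrays. The groups did not overlap, and the difference was 1.09 ± 0.22 (adjusted p = 0.00895). Ndufc2, a small subunit of this arm, lay at 6.33, 6.17 and 5.99 on the control arrays and 6.45, 6.61 and 6.78 on the knockout arrays. All 3 knockout arrays were above the controls, but the difference of 0.45 ± 0.20 (adjusted p = 0.126) did not pass. Ndufa3, another small membrane subunit with YY1 letters, lay at 7.31, 7.31 and 7.59 on the control arrays and 6.05, 6.95 and 8.18 on the knockout arrays. Its knockout arrays covered both the lowest and the highest of the 6 values, and the difference was -0.34 ± 0.45 (adjusted p = 0.641). Ndufa8 had the smallest difference of the 44 genes, 0.01 ± 0.18 (adjusted p = 0.976), and the other 4 ranged from -0.21 in Ndufc1 to 0.29 in Ndufa11.

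Ndufab1, the mitochondrial acyl carrier protein, which sits in both arms and also serves fatty acid synthesis, lay at 4.38, 4.38 and 4.02 on the control arrays and 5.08, 4.63 and 2.71 on the knockout arrays. The knockout arrays spread with an SD of 1.26, against 0.21 in controls, and the difference was -0.12 ± 0.52 (adjusted p = 0.9). Ndufa4, named as a complex I subunit but assigned to cytochrome c oxidase, lay at 7.08, 6.77 and 6.74 on the control arrays and 4.69, 5.99 and 6.69 on the knockout arrays. Each knockout array was below each control array, replicate 4 by a small margin, and the difference was -1.07 ± 0.43 (adjusted p = 0.103). Without knockout replicate 4 it was -1.52 with an adjusted p of 0.0213. The pseudogene Ndufs5-ps lay at 4.48, 3.86 and 4.14 on the control arrays and 2.60, 5.04 and 5.29 on the knockout arrays, so knockout replicate 1 was lowest and the other 2 were highest. Such a copy can share probes with the parent gene, and its level is uncertain.

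**Figure D2:**
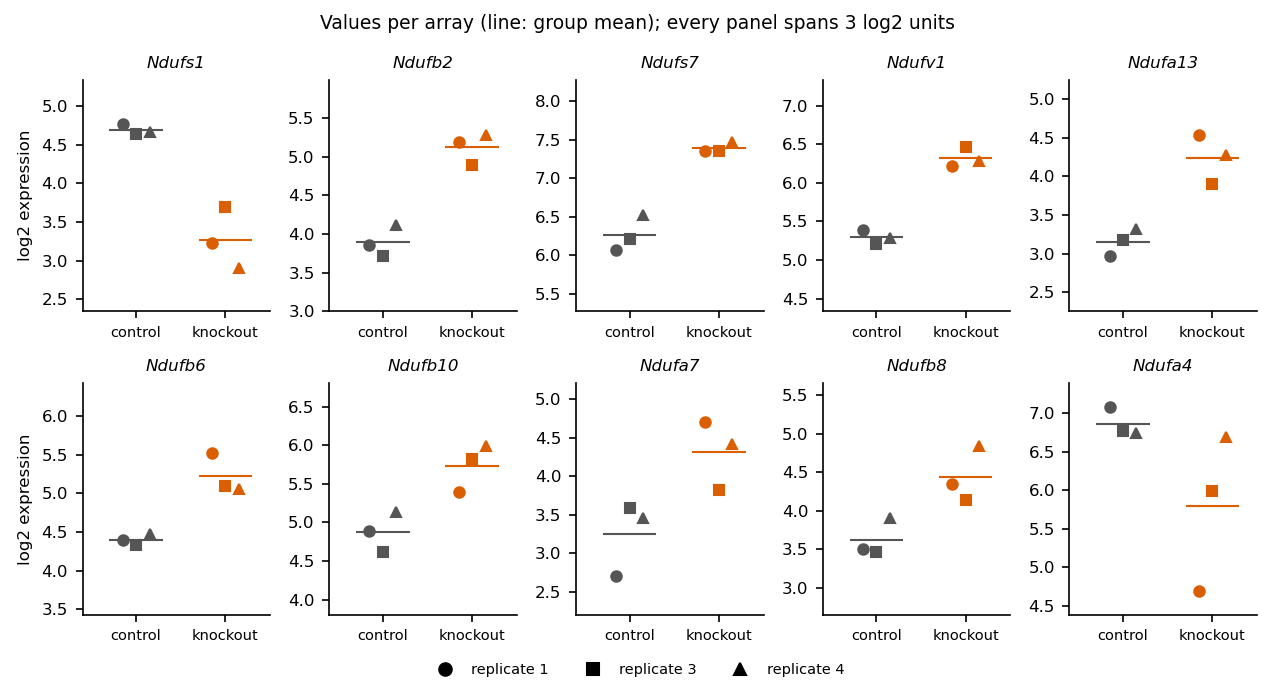
Log2 level (vertical axis) on each of the 6 arrays for the 9 structural genes that passed and Ndufa4, with 1 point per array, control arrays in grey, knockout arrays in orange, the replicate number as the shape and a line at each group's mean. The groups are apart in all 10 panels, and in Ndufa4 knockout replicate 4, at 6.69, is just under the controls while replicate 1 is at 4.69.

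Among the assembly factors, Ndufaf7, a mitochondrial methyltransferase, lay at 4.25, 4.82 and 4.08 on the control arrays and 3.79, 3.32 and 4.13 on the knockout arrays. The groups overlapped, and the difference was -0.64 ± 0.28 (adjusted p = 0.127). Ndufaf3, which works with Ndufaf4 early in the assembly of the quinone module, lay at 3.94, 4.07 and 4.01 on the control arrays and 3.71, 4.55 and 4.67 on the knockout arrays. Knockout replicate 1 was lowest of all arrays and the other 2 were highest, with a difference of 0.30 ± 0.27 (adjusted p = 0.457). Ndufaf2, a relative of Ndufa12 that holds its place during assembly, differed by 0.48 ± 0.24 (adjusted p = 0.181) with overlap. Ndufaf8, partner of Ndufaf5, was above the controls on every knockout array, with 0.43 ± 0.20 (adjusted p = 0.155), and Ndufaf6 was below them, with -0.23 ± 0.18 (adjusted p = 0.383). Ndufaf1, Ndufaf5 and Ndufaf4 differed by 0.34, -0.21 and 0.08.

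Groups did not overlap in 15 of the 36 structural genes, with the knockout above in 11 and below in 4. Over all genes the knockout arrays lay above in 21.9% and below in 20%. The 41.7% of structural genes without overlap is close to the 41.9% of all genes. In the assembly factors the counts were 1 above and 1 below.

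The 3 knockout arrays differed among themselves over the structural genes. The median difference from the control mean was -0.23 on replicate 1, 0.20 on replicate 3 and 0.56 on replicate 4, whereas over all genes it was 0.04, 0.02 and 0.04. Replicate 1 was the lowest knockout array in 23 of the 36 genes, 63.9%, against 34.6% of all genes, and replicate 4 was the highest in 26, 72.2%, against 34.4%. On replicate 1, 18 of the 36 lay below every control, 50% against 36.1% of all genes, and 13 above, 36.1% against 40.2%. On replicate 4, 25 lay above every control, 69.4% against 39.7% of all genes, and 7 below, 19.4% against 33.6%. The assembly factors did not show this order, with medians of 0.11, -0.09 and -0.09. Spread within groups was wider in the knockout: the median SD of the structural genes was 0.47, against 0.18 in controls, while over all genes it was 0.30 and 0.20. The knockout SD was the larger in 29 of 36 structural genes, 80.6%, against 67% of all genes. The genes of 1 array share an RNA sample and are not independent.

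**Figure D3:**
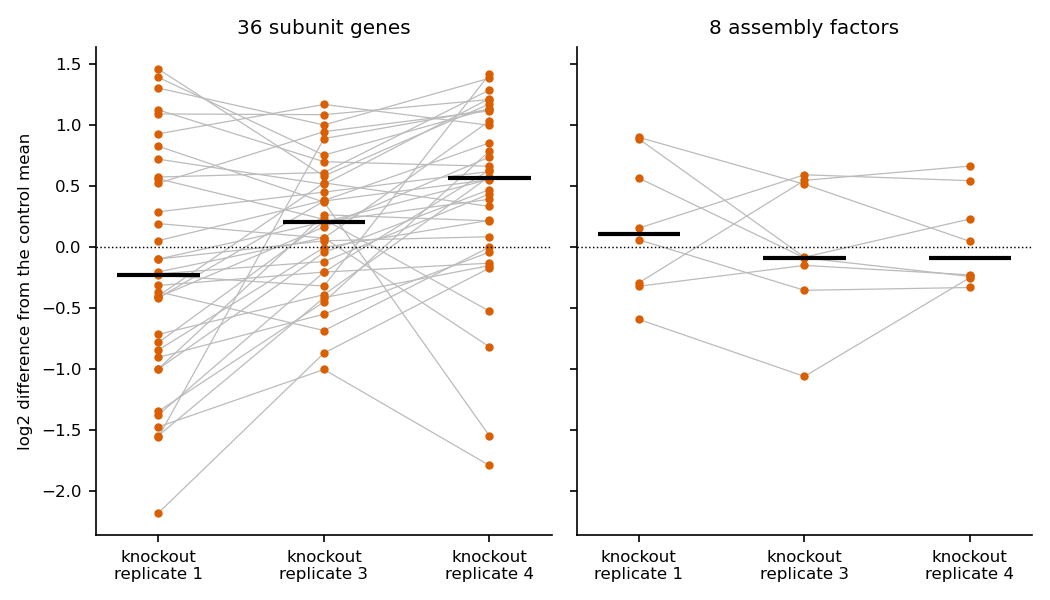
Difference of each knockout array from the control mean (log2, vertical axis) for the 36 subunit genes and the 8 assembly factors, with 1 line per gene across knockout replicates 1, 3 and 4 and a black bar at the median. The subunit median runs from -0.23 on replicate 1 through 0.20 to 0.56 on replicate 4, an order of arrays and not of time or dose.

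Other measures also differed among these arrays. Replicate 1 had the highest small nucleolar RNA median, 7.43 against 6.49 and 6.43, and the lowest summed level of the 10 lung markers, 13.3 against 13.7 and 13.9. The brightest markers, Scgb1a1 and Sftpc, weigh most in that sum, and neither passed. Cdh5, Pecam1, Sftpa1 and Cldn18, which fell, were each lowest on replicate 4 instead. Pecam1 was at 8.17, 8.49 and 7.02 on replicates 1, 3 and 4, and Sftpa1 at 8.81, 9.19 and 8.79. The summed level of the 5 erythroid markers measured, which is hemoglobin and related genes of red cells, was 5.89 on replicate 1, 7.51 on replicate 3 and 7.60 on replicate 4, and 6.18 to 7.20 in controls, with none past the threshold. Beside the counts that follow, 12.5% of all genes were higher and 13% lower. The 10 markers of cardiac muscle, which in mice sheathes the pulmonary veins and is rich in mitochondria, had 3 higher (30%) and 1 lower (10%). Their summed level was 8.02 to 8.44 in controls and 9.12, 8.49 and 8.67 on the knockout arrays. Brown fat, another tissue rich in mitochondria, had 3 of 8 markers lower (37.5%) and none higher. Control arrays were at 6.71 to 7.01 and knockout arrays at 5.67 to 5.97. For alveolar macrophages it was 1 higher (12.5%) and 3 lower (37.5%) of 8, at 8.82 to 9.41 and 7.84 to 8.45. Ciliated cells had 2 higher (20%) and 4 lower (40%) of 10, at 8.22 to 8.43 and 8.72 to 9.20. The brightest of these markers, Tppp3, weighs most in that sum and rose from a mean of 7.14 to 8.40. Of the 10 differences, 8 were negative, with a median of -0.38. The 16 endothelial markers had 5 in each direction (31.2% each), at 11.8 to 12.1 and 11.4 to 11.5. Cdh5 and Pecam1, the brightest of them on the control arrays, weigh most in the control sums, and both fell. Of the 16 differences, 8 were positive and 8 negative, with a median of 0.16. Skeletal muscle had none of 8 past the threshold, with arrays at 6.03 to 9.33 and 7.02 to 9.29. The part of each of these in the differences of complex I genes was not tested.

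Gene length differed along with the direction of change. The median span of the 44 genes was 7.74 kb in RefSeq, against 18.5 kb over protein-coding genes. Across the 44 genes, which are not independent replicates, Spearman's rho between the difference and the span was -0.32, and over 19686 protein-coding genes it was also -0.32. Of the 24 structural genes under 10 kb, 7 rose and none fell, 29.2%, where 17.1% of protein-coding genes of that span rose and 3.33% fell. Of the 6 over 20 kb, none rose and 1 fell, Ndufs1 at 33.2 kb, where 8.86% rose and 25.5% fell. After the trend with length over protein-coding genes was removed from each array, 12.9% of genes were higher and 13.2% lower. In that fit the structural genes had 5 higher (Ndufb2, Ndufs7, Ndufv1, Ndufa13 and Ndufa7) and 3 lower (Ndufs1, Ndufb9 and Ndufa4), with a median of -0.10. Ndufb10, Ndufb6 and Ndufb8 no longer passed. Among the assembly factors Ndufaf2, whose gene spans 106 kb, was then higher at 0.86 and Ndufaf7 lower at -0.83, with adjusted p of 0.0264 and 0.047.

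**Figure D4:**
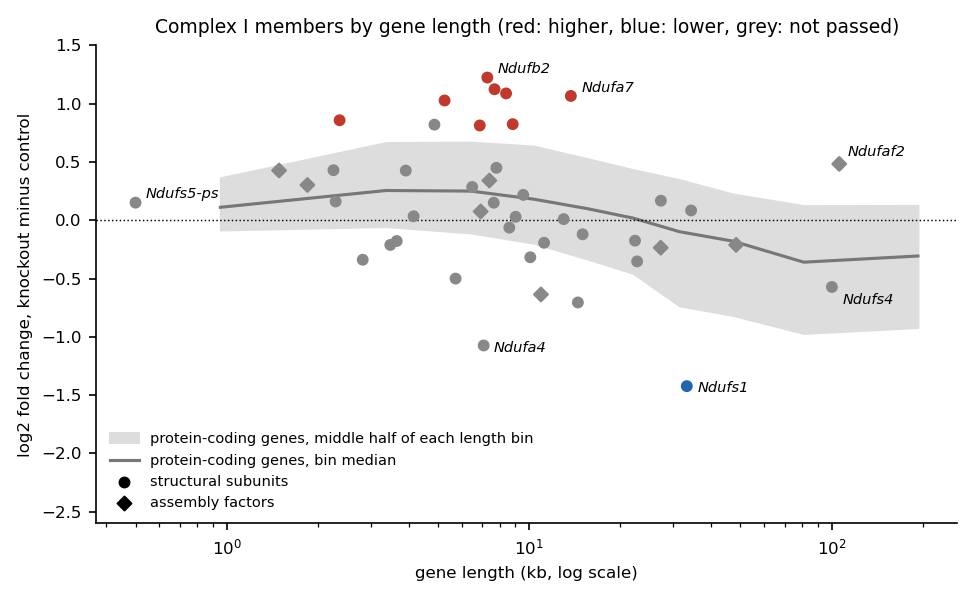
Log2 difference (knockout minus control, vertical axis) against gene span in kb (horizontal log axis) for the 44 genes, over a line at the median and a band between the quartiles of protein-coding genes in 10 bins of about equal number. The bin median is 0.26 at a median span of 3.37 kb and -0.36 at 81 kb, and 28 of the 44 members are under 10 kb.

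The number of structural genes that rose depended on single control arrays. Without control replicate 1 or without control replicate 3 it was 4, the same Ndufb2, Ndufs7, Ndufv1 and Ndufa13, while the share of all genes that rose was 6.18% and 5.63%. Without knockout replicate 4 it was 5, with 10.6% of all genes higher and 12.4% lower, and 3 structural genes were lower, Ndufa4, Ndufb9 and Ndufs1. In that fit Ndufaf2 was higher at 0.70 with an adjusted p of 0.0482. Ndufs1, Ndufb2, Ndufs7, Ndufv1 and Ndufa13 passed with each array left out.

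Other genes of the pathway were counted from lists chosen by function. Of 13 assembly factors whose symbols are not Ndufaf, none rose and 2 fell, with a median difference of -0.26: Lyrm2, a LYR-motif protein, by -1.09 ± 0.29 (adjusted p = 0.0249) and Tmem126b, a membrane protein of the assembly complex for the proximal arm, by -0.94 ± 0.29 (adjusted p = 0.0443). Complexes II and III also held genes in opposite directions. In complex II, 1 of 4 rose, Sdhb at 0.70, and 1 fell, Sdha at -1.27. In complex III, 3 of 8 rose, among them Uqcrc1 at 1.60 ± 0.24 (adjusted p = 0.00303), and its partner core protein Uqcrc2 fell, at -1.58 ± 0.29 (adjusted p = 0.00562). In the list for complex IV, 5 of 13 rose and none fell, and Cox8b, an isoform of muscle and brown fat that was counted with the brown fat markers instead, fell (-0.94, adjusted p = 0.0492). The rises were led by Cox4i1 at 1.57 ± 0.21 (adjusted p = 0.00229). Of 14 ATP synthase genes 5 rose and none fell, led by Atp5k at 1.25 ± 0.23 (adjusted p = 0.00624). Over all genes 12.5% rose and 13% fell. Over protein-coding genes under 10 kb, 17.1% rose and 3.33% fell. Differences between these lists were not tested.

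Of 12 regulators of mitochondrial biogenesis, 1 rose and 3 fell, 8.33% and 25%, where 12.5% of all genes rose and 13% fell. In either direction 33.3% passed, against 25.5% of all genes. Ppargc1a, the coactivator that drives mitochondrial gene expression and also a brown fat marker, fell by 1.30 ± 0.22 (adjusted p = 0.00448). Gabpa, the ETS factor that binds many respiratory genes, fell by 1.27 ± 0.27 (adjusted p = 0.0105), and Tfb2m, a factor of mitochondrial transcription, fell by 1.14 ± 0.20 (adjusted p = 0.00531). Polrmt, the RNA polymerase of mitochondria, rose by 0.98 ± 0.18 (adjusted p = 0.00575). Nrf1 and Yy1, whose letters are in the windows printed above, differed by -0.43 ± 0.24 (adjusted p = 0.233) and 0.83 ± 0.34 (adjusted p = 0.107).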

How the data were processed

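Whole-lung RNA was measured on 6 arrays, 3 per group. The deposited log2 values per probe set are RMA summaries, per the submitters' processing notes; the sources used here give neither its version nor the definition of the probe sets. All columns held common quantiles (largest difference 0.00183), so a shift shared by all genes could not show. The table has no detection calls, and with 3 arrays a group the precision is limited. Of 25428 probe sets, 24705 had 1 symbol, 0 several and 723 none in the platform annotation. The brighter probe set was kept for the 1 symbol with 2, leaving 24704 genes, of which 24672 matched RefSeq (GRCm38.p6) for span and biotype.

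Differences were tested with limma 3.58.1 in R 4.3.3 (lmFit, eBayes; no block, no filter) with Benjamini-Hochberg adjustment; the code was tested on simulated data. The p-values rest on the spread between 3 animals a group. Summed levels of a marker list are log2 of the summed linear values. The length trend was removed from each array with lowess (span 0.3). Members and lists were chosen with earlier results of these data known. Values per array were printed for Nfat5, for up to 3 genes of smallest p per direction and up to 2 brightest genes not past the threshold in each role group, and for Ndufab1 and Ndufa4; other genes with values, such as Ndufs5-ps, were chosen after their values were seen. Alternatives left out each array, added a replicate block, filtered dim genes, used an intensity trend or array weights, kept protein-coding genes, removed the length trend, added the small nucleolar RNA level, centred arrays, averaged probe sets or moved the threshold.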

Additional observations from a re-analysis of the deposited data

How the results depend on the processing

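The 8 structural genes that rose became 4 to 8 with 1 array left out, 5 with the length trend removed, 4 at an adjusted p of 0.01 and 0 with the small nucleolar RNA level as a covariate. The 1 that fell became 1 to 3, 3 with the length trend removed and 0 with the covariate. Among assembly factors the 0 that rose became 0 to 1, and with the length trend removed 1 rose and 1 fell. The covariate gave a median of 1.71 for structural genes and -1.01 for assembly factors; the median of the factors was -0.048 to 0.20 with 1 array left out, 0.32 when only the brighter 50 percent of genes were tested, which kept 6 of the 8, and 0.054 with the length trend removed. The covariate nearly follows the groups, 0 of 24704 genes passed with it, and it turned the sign of Ndufa12 (3.24), Ndufa13 (-0.17), Ndufa3 (3.77), Ndufa4 (3.54), Ndufa7 (-0.80), Ndufb6 (-0.34), Ndufb9 (1.13) and Ndufs6 (2.73); the cause was not tested. With 1 array left out, differences that had not passed ran from -0.39 to 0.24 in Ndufa12, from -0.90 to 0.17 in Ndufa3, from -0.59 to 0.59 in Ndufab1 and from -0.29 to 0.30 in Ndufs6, which was 0.034 with array weights. Over the 21 genes followed one by one under 18 alternatives (Nfat5 and the 20 members named by rule), 331 values kept direction and side of the threshold, 24 kept direction but no longer passed, 9 newly passed, and 14 turned sign, of which Ndufa13, Ndufa7 and Ndufb6 with the covariate also no longer passed.

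Deviations of same-numbered arrays correlated at 0.0622, -0.0131 and 0.00384 across genes. With 3 arrays a group these values cannot tell whether arrays were paired by design, and the labels name no pairing. With the replicate block, 8 structural genes rose and 1 fell, with Ndufb7 (0.82, adjusted p = 0.0273 in limma) in place of Ndufa7 (1.07, adjusted p = 0.0579). Among the limits, each group has 3 arrays, Ndufb3 lay under the lower quartile of all levels, and no detection calls were at hand to tell dim from absent.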

Other observations

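Ndufa4l2, a relative of Ndufa4 induced by hypoxia and known to lower complex I activity, was outside the genes counted. Chosen after its values were seen, it lay at 4.48, 4.83 and 5.31 on the control arrays and 6.03, 6.17 and 5.90 on the knockout arrays (replicates 1, 3 and 4), with no overlap. It rose by 1.16 ± 0.24 (adjusted p = 0.00968 in limma), a fold of 2.23. Cox4i2, the lung form of a cytochrome c oxidase subunit and likewise known from hypoxia, rose by 1.09 ± 0.22 (adjusted p = 0.00881), and its general form Cox4i1 rose too, by 1.57 ± 0.21. All 6 arrays were hypoxic, so whether either pair differs in its response to hypoxia was not tested.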
